A study of Mus musculus with 2 samples.

Results

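The genes described here carry out retinol uptake and retinoic acid metabolism: the retinol receptor Stra6, the plasma retinol carrier Rbp4, the retinal dehydrogenases Aldh1a1, Aldh1a2 and Aldh1a3, the retinoic acid-binding proteins Crabp1 and Crabp2, the retinoic acid hydroxylase Cyp26b1 and the retinal reductase Dhrs3. They were chosen by symbol, 9 of the 22180 genes that have a probe set with exactly 1 gene symbol, and each was represented by its brightest such probe set. They were chosen with their values on these arrays already known, so the differences below are a description and carry no test. RNA was measured in M210B4, an established mouse bone marrow stromal cell line, after 24 h with an anti-CD84 antibody (clone 152-1D5) that activates CD84, a homophilic receptor of the SLAM family, and after 24 h with an IgG1 isotype control antibody. Both cultures were kept in RPMI medium with 2% serum. The RNA of either culture was hybridised to 1 array (Affymetrix Mouse Gene 2.0 ST), so no replicate error, standard error or p-value exists, and the number of arrays limits the precision. No untreated culture was analysed here, and both cultures received an antibody. In bulk RNA, fewer cells of a type and less RNA per cell cannot be told apart.

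Retinol travels in blood bound to RBP4 and can enter cells through STRA6. Inside the cell it is oxidised reversibly to retinal, which the ALDH1A enzymes turn irreversibly into retinoic acid. CRABP proteins bind retinoic acid in the cytosol, nuclear RAR and RXR receptors respond to it, and CYP26 enzymes hydroxylate it for removal. Several of these genes, among them Stra6, Dhrs3, Crabp2 and the Cyp26 genes, are also known as genes that retinoic acid induces in other cells. In human marrow, stromal CYP26 activity is known to limit the retinoic acid that reaches haematopoietic stem cells.

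By the deposited values Stra6 and Aldh1a2 were lower after anti-CD84 than after IgG1 and Cyp26b1 was higher, each above the detection level on 1 array only. Aldh1a1, Crabp2, Dhrs3 and Rbp4 were detected on each array and lay within 1.5-fold. Aldh1a3 and Crabp1 were below the detection level on both. The detection level, a log2 value of 4.84, lies above 95% of the values of 1394 odorant and vomeronasal receptor genes, sensory genes taken to be silent in stroma, and exceeding it on either array made a gene detected. Counts past 1.5-fold take the deposited values as they stand, also where 1 of them is below the detection level. By that count 1 of the 7 detected genes was past 1.5-fold higher and 2 were past it lower after anti-CD84. Among all 13284 detected genes 17.1% were past 1.5-fold, 10.7% higher and 6.4% lower, and nothing is read from the comparison of these shares because the 9 genes were chosen on the same values. With the differences centred on their median, 0.09 on the log2 scale, the split over all detected genes was 1024 higher and 1128 lower, against 1427 and 850 as deposited, while the 7 genes kept their split of 1 and 2. The median difference of the 7 genes was -0.07, and it was also -0.07 with values floored at the detection level, beside medians of 0.09 and 0.07 over all detected genes.

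**Figure D1:**
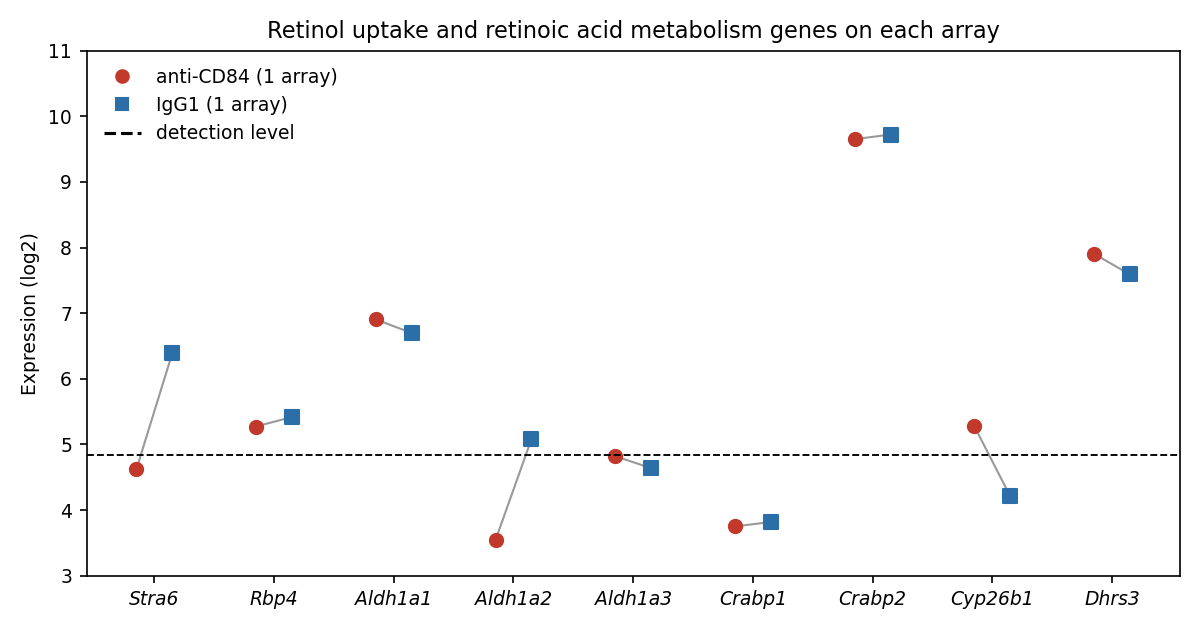
Log2 expression of the 9 genes (vertical axis) on the anti-CD84 array (red circles, left of each pair) and the IgG1 array (blue squares, right), 1 array each, with the detection level of 4.84 as a dashed line. Stra6 (4.62 and 6.39), Aldh1a2 (3.54 and 5.08) and Cyp26b1 (5.28 and 4.21) cross the detection level between the arrays, and the other pairs lie on 1 side of it. Heights of different genes come from different probe sets and are not comparable.

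All 3 genes past 1.5-fold were above the detection level on 1 array only, and the other 4 detected genes were above it on both. Of the 1523 genes in the series that were above it on 1 array only, 45.6% were past 1.5-fold. Of those above it on the IgG1 array only 48% were past 1.5-fold lower, and of those above it on the anti-CD84 array only 42.8% were past 1.5-fold higher. Of genes above it on both arrays 13.5% were past 1.5-fold. A fold written "at least" sets the dimmer array at the detection level, and noise in the brighter array is not allowed for in it. With values floored at the detection level, Stra6 was the 1 gene of the 7 still past 1.5-fold, and over all detected genes 13.3% were, 9.15% higher and 4.13% lower.

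The stretches upstream of Stra6, Aldh1a2 and Cyp26b1 are shown because these genes had the largest differences of the 9. They are the 250 bases before the annotated start, from RefSeq on GRCm38.p6, 5′ to 3′ on the strand of the gene, and for Stra6, which has 4 annotated starts, before the most upstream one. Stra6 lies on the plus strand (chr9:58128838-58129087), as does Aldh1a2 (chr9:71215539-71215788), and Cyp26b1 on the minus strand (chr6:84593811-84594060).
Stra6: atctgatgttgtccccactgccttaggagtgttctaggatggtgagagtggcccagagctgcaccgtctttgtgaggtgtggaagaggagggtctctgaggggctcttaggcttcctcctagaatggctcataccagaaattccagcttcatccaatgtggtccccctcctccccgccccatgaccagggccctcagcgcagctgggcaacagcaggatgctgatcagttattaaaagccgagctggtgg
Aldh1a2: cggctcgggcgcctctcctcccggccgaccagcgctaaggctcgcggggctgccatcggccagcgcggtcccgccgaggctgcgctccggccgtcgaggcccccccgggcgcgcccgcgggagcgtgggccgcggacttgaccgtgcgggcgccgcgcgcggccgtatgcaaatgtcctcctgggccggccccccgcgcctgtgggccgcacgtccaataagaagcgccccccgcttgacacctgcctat
Cyp26b1: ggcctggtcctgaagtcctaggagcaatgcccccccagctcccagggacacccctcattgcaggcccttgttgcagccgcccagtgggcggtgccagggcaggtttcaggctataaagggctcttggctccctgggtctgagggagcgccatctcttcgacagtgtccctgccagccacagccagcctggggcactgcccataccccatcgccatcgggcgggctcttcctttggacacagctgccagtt
Retinoic acid receptors bind pairs of a short hexamer, so windows from 250 bases before to 50 bases after each start were searched on both strands. The search was for the hexamer AGGTCA, for the variant hexamer AGTTCA, for the variant hexamer GGGTCA and for the variant hexamer GGTTCA. It also covered direct repeats of any of these with 1, 2 or 5 bases between them. A hexamer inside a direct repeat was also counted as a hexamer. None of the 3 stretches holds any of the hexamers, which says only that these letters are not in these windows. Over the 14 windows of the 7 genes found in the promoter table, 3 held a hexamer and 0 a direct repeat. These were 1 window each of Rbp4 and Aldh1a1, shown further on, and 1 of the 4 windows of Stra6, at a downstream start, where AGTTCA lies just after that start. Of all 32851 windows, 43.7% held a hexamer and 0.588% a direct repeat with 1 of these spacers.

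Stra6, the cell-surface receptor that takes up retinol from RBP4, was at a log2 value of 4.62 on the anti-CD84 array and 6.39 on the IgG1 array. It was below the detection level after anti-CD84, and its difference of -1.77 makes it at least 2.93-fold lower. Among the 5057 detected genes with a mean level between 5 and 7, 95% of the differences lay between -0.86 and 1.04. In that range 5 genes, Stra6 included, had a difference as low as that of Stra6. This rank uses the undetected anti-CD84 value and mixes genes detected on 1 array with genes detected on both. Because the gene was chosen on the same values, the rank is a description only. The difference of Stra6 stayed between -1.86 and -1.55 under the other scalings and with values floored. The array carries 1 probe set for Stra6 in the annotation, as for each of the 9 genes, so no second probe set bears on the value. By distance over the log2 values of both arrays, the 3 named genes nearest to Stra6 were Gbp5, an interferon-inducible GTPase (4.57 after anti-CD84 and 6.48 after IgG1), Trp53rka (4.73 and 6.41) and Zbtb7c (4.78 and 6.21). With 2 arrays this likeness means only a similar pair of values. Stra6l, related to Stra6 and known in mouse as a second RBP4 receptor, was at 4.94 after anti-CD84 and 4.82 after IgG1, next to the detection level on both.

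Rbp4, which carries retinol, was at 5.27 after anti-CD84 and 5.42 after IgG1, a difference of -0.15. That lies inside the central 95% of genes of its level. A window before 1 of its 2 annotated starts holds a single hexamer, TGACCC, which is GGGTCA read on the other strand. It is shown in capitals (minus strand, chr19:38125349-38125394, GRCm38.p6).
Rbp4: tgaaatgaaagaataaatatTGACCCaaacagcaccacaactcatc
The detected genes of uptake and transport other than Stra6 were within 1.5-fold as well. Of 8 further genes in this list 5 were detected and 0 were past 1.5-fold in either direction, beside 17.1% of all detected genes past it. With so few genes nothing is read from this count. Lrpap1, a chaperone of the LRP receptors, was 1.47-fold higher after anti-CD84 (8.54 against 7.99), and Lrp1, an endocytic receptor of that family, was at 12.06 and 11.85. Scarb1, a lipoprotein receptor that also takes up carotenoids, was at 9.24 after anti-CD84 and 9.37 after IgG1, and Ttr, the plasma partner of RBP4, was at 4.87 and 4.94.

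Of the 3 retinal dehydrogenases, Aldh1a1 was detected on each array, Aldh1a2 on the IgG1 array only and Aldh1a3 on neither. Aldh1a2, the main enzyme of retinoic acid synthesis in the mouse embryo, was at 3.54 after anti-CD84 and 5.08 after IgG1, a difference of -1.54. Because the anti-CD84 value was below the detection level and the IgG1 value just above it, the fold that the detection level allows is at least 1.18. The central 95% of the 1477 detected genes with a mean level under 5 lay between -1.27 and 1.11, and 14 of them, Aldh1a2 included, had a difference as low. This rank uses the undetected anti-CD84 value, and with values floored at the detection level the difference was -0.24. Aldh1a1, which is the retinal dehydrogenase of many adult tissues, was at 6.90 after anti-CD84 and 6.70 after IgG1, a difference of 0.21. Aldh1a3 was at 4.82 and 4.64, below the detection level on both arrays, so no fold is given. Aldh1a7, a close paralogue of Aldh1a1 in the mouse, was at 3.37 and 3.51, and Aldh8a1, which oxidises 9-cis-retinal, at 3.80 and 3.67, both below the detection level. Probes of paralogues as similar as Aldh1a1 and Aldh1a7 can share signal, which makes the values of both uncertain. A window of Aldh1a1 holds 1 hexamer, again TGACCC, in capitals (plus strand, chr19:20601899-20601944, GRCm38.p6).
Aldh1a1: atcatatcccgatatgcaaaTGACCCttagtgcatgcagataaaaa

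**Figure D2:**
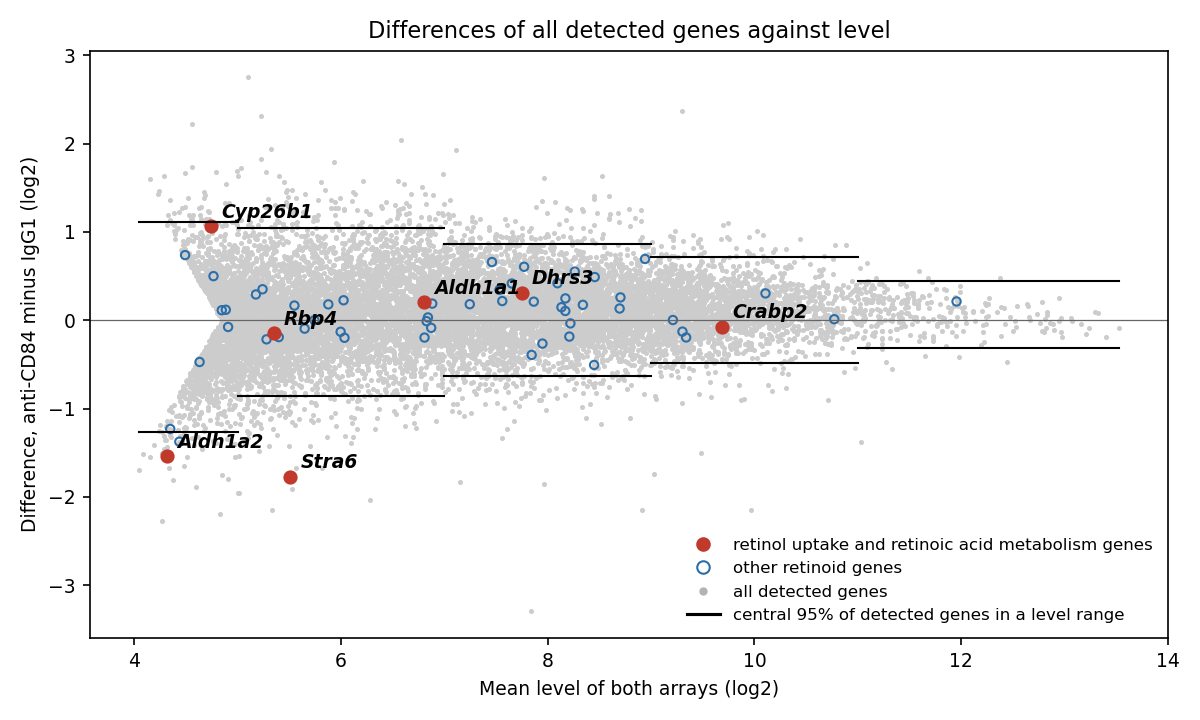
Difference between the arrays (anti-CD84 minus IgG1, log2, vertical axis) against the mean level of both arrays (log2, horizontal axis) for all 13284 detected genes (grey), other retinoid genes (open blue circles) and the 7 detected genes described here (red, named). Black lines bound the central 95% of differences in each level range. Stra6 and Aldh1a2 lie below the lower lines, Cyp26b1 lies inside the upper line at 1.07 against 1.11, and the gap near 0 at low levels follows from the detection rule. Each of these named differences uses a deposited value below the detection level.

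Dhrs3, which reduces retinal back to retinol, was at 7.90 after anti-CD84 and 7.59 after IgG1, a difference of 0.31 or 1.24-fold. Its partner in the opposite reaction, Rdh10, the main retinol dehydrogenase of the embryo, was at 9.29 after anti-CD84 and 8.59 after IgG1, which is 1.62-fold higher and was measured on both arrays. Both genes had the higher value after anti-CD84, Dhrs3 within and Rdh10 past 1.5-fold. In the list of retinol and retinal oxidoreductases without Dhrs3, 14 of 21 measured genes were detected, 3 of them past 1.5-fold higher and 1 lower, beside 10.7% and 6.4% of all detected genes. The other 2 higher ones were Adh7, an alcohol dehydrogenase that oxidises retinol, at 7.79 against 7.13 (1.58-fold), and Dhrs7, a short-chain dehydrogenase, at 8.07 against 7.47 (1.52-fold). The lower one was Rdh16, a microsomal retinol dehydrogenase, at 3.73 after anti-CD84 and 4.96 after IgG1, at least 1.09-fold. Rdh16 belongs to a family of near copies (Rdh1, Rdh7, Rdh9 and Rdh19 among them), so shared probes leave its value uncertain. Of the 14 genes, 11 had a difference above 0, as did 59.1% of all detected genes, with a median of 0.28 (0.28 with values floored), against 0.09 and 0.07 for all detected genes. Adh7 and Dhrs7 fell short of 1.5-fold with the differences centred. Rdh10 stayed past it then (0.61 on the log2 scale) but fell just short after a loess correction for level (0.58).

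Crabp2, which hands retinoic acid to its nuclear receptors, was at 9.65 after anti-CD84 and 9.72 after IgG1. The difference of -0.07 was inside the central 95% of the 1936 genes with a mean level between 9 and 11, from -0.49 to 0.72. The named genes nearest to its pair of values were Osbpl9 (9.64 after anti-CD84 and 9.72 after IgG1), Zc3hav1 (9.63 and 9.70) and Map4k4 (9.62 and 9.73). Crabp1, the other cytosolic retinoic acid-binding protein, was at 3.75 after anti-CD84 and 3.82 after IgG1, below the detection level on both. Of the 5 further binding proteins measured, Fabp5 and Rbp7 were detected. Fabp5, a fatty acid-binding protein that can also carry retinoic acid, was 1.42-fold lower (8.20 after anti-CD84 against 8.70 after IgG1), and its other probe sets differed by -0.19, -0.45 and -0.48. Rbp7, a cellular retinol-binding protein, was at 3.75 after anti-CD84 and 5.12 after IgG1, at least 1.22-fold lower.

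Cyp26b1, which hydroxylates retinoic acid and so removes it, was at 5.28 after anti-CD84 and 4.21 after IgG1, a difference of 1.07. The IgG1 value was below the detection level, which makes it at least 1.35-fold higher. Among the 1477 detected genes with a mean level under 5, 50 had a difference as high, Cyp26b1 included. This rank uses the undetected IgG1 value, and with values floored at the detection level the difference was 0.44. The related Cyp26a1 was at 3.90 after anti-CD84 and 3.53 after IgG1, and Cyp26c1 at 4.35 and 3.96. Both were below the detection level on each array, so no fold is given. Cyp2s1, a cytochrome that can metabolise retinoic acid, was at 4.39 after anti-CD84 and 4.87 after IgG1, at least 1.02-fold lower.

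**Figure D3:**
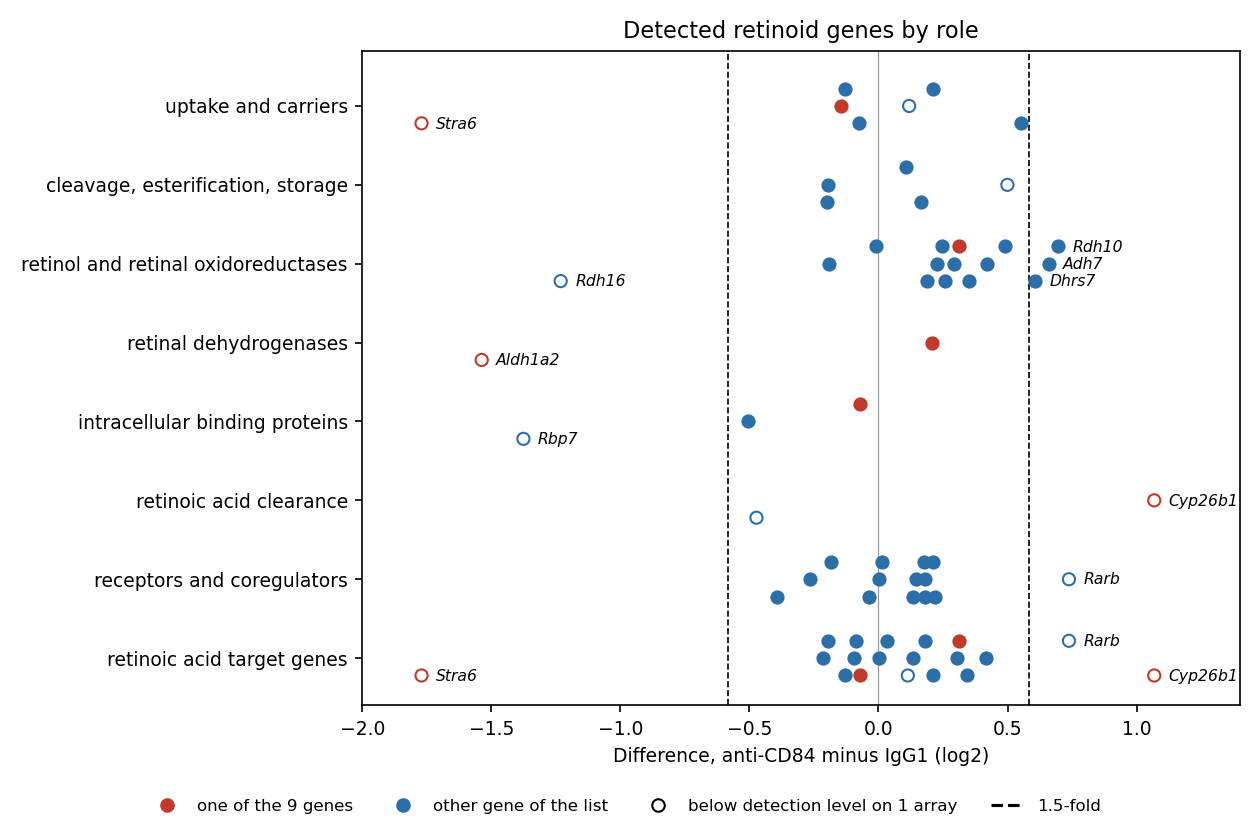
Differences (anti-CD84 minus IgG1, log2, horizontal axis) of the detected genes of 8 retinoid lists, 1 list per row, with the 9 genes described here in red and other genes in blue, and dashed lines at 1.5-fold. Open circles are genes below the detection level on 1 array. Rdh10, Adh7 and Dhrs7 are the filled circles past 1.5-fold, and the other genes past it, Stra6, Aldh1a2, Cyp26b1, Rdh16, Rbp7 and Rarb, are open circles. Genes in 2 lists are drawn in both.

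Across 7 lists that cover uptake, storage, oxidation, binding, clearance and receptors, 63 retinoid genes other than the 9 had a single-symbol probe set, and 41 were detected. Of these, 4 were past 1.5-fold higher, 2 were past it lower and 35 lay within 1.5-fold, shares not far from those of all detected genes given above. The fourth higher gene, beside Rdh10, Adh7 and Dhrs7, was Rarb, and the lower genes were Rbp7 and Rdh16. With the differences centred the split was 2 higher and 3 lower, the third lower gene being Fabp5 (-0.59 on the log2 scale). The median difference of the 41 genes was 0.17, and 0.15 with values floored, against 0.09 and 0.07 for all detected genes. In the storage list, 5 of 9 measured genes were detected and 0 were past 1.5-fold, beside 17.1% of all detected genes. Dgat1 (6.71 after anti-CD84 and 6.91 after IgG1) and Dgat2 (5.93 and 6.13), acyltransferases that can esterify retinol, were both within 1.5-fold. The lipase Pnpla2 was at 8.22 after anti-CD84 and 8.12 after IgG1. Lrat, the main retinol esterification enzyme, was below the detection level at 3.73 and 4.03, and Bco1, which cleaves carotene to retinal, was at least 1.13-fold higher (5.01 against 4.51).

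The nuclear receptors Rara, Rarg, Rxra and Rxrb were detected on each array and within 1.5-fold. Rara was at 7.82 after anti-CD84 and 8.08 after IgG1, and Rarg at 8.20 and 8.24. Rxra was 1.31-fold lower (7.65 after anti-CD84 against 8.04 after IgG1), and Rxrb was at 7.34 and 7.15. Rarb, a receptor whose own gene is a textbook target of retinoic acid, was at 4.86 after anti-CD84, just above the detection level, and at 4.12 after IgG1, which makes it at least 1.01-fold higher. Of 15 measured receptors and coregulators 14 were detected, and by the deposited values 1 was past 1.5-fold higher (Rarb, which was not past it with values floored) and 0 were lower. Of all detected genes 10.7% were past it higher and 6.4% lower. The coactivator Crebbp was at 10.78 after anti-CD84 and 10.77 after IgG1.

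A list of 23 further genes that retinoic acid is known to induce in other cells had 15 detected of 20 measured, with 1 past 1.5-fold higher by the deposited values (Rarb) and 0 lower. Of all detected genes 10.7% were past it higher and 6.4% lower. With values floored, 0 genes of the list were past it in either direction, beside 13.3% of all detected genes. Its median difference was 0.11, and 0.03 with values floored, beside 0.09 and 0.07 for all detected genes. Tgm2, a transglutaminase, was 1.33-fold higher (7.86 after anti-CD84 against 7.44 after IgG1), and Bhlhe40, a transcription factor, 1.23-fold higher (10.26 against 9.96). The Hox genes of the list, Hoxa4, Hoxa5, Hoxb1, Hoxb4 and Hoxb5, had differences between -0.22 and 0.03, and a dimmer probe set of Hoxb5 differed by 0.58. Of the 9 genes described here, 4 are also known targets and stood on different sides: Stra6 was lower, Cyp26b1 higher, and Dhrs3 (0.31) and Crabp2 (-0.07) within 1.5-fold. Among 69 retinoid genes in the promoter table, direct repeats with a 5-base spacer were found at Rarb and Cyp26a1. A repeat with a 1-base spacer was found at Bco1. Of all windows 0.0974% held a repeat with the 5-base spacer, but a count of genes and a share of windows are unlike units. The 69 genes also include genes listed as known targets of retinoic acid, so nothing is read from this count. The repeats of Rarb and Cyp26a1 are shown with the hexamers in capitals, for Rarb on the minus strand (chr14:16575493-16575549) and for Cyp26a1 on the plus strand (chr19:37697756-37697812), on GRCm38.p6 from RefSeq.
Rarb: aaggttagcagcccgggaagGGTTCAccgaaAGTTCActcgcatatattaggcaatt
Cyp26a1: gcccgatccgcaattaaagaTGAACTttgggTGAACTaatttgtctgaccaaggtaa
The hexamers of Cyp26a1 are AGTTCA read on the other strand. Rarb was just above the detection level after anti-CD84 and below it after IgG1, and Cyp26a1 was below it on both arrays. Neither gene with the 5-base spacer therefore gave a fold measured on both.

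**Figure D4:**
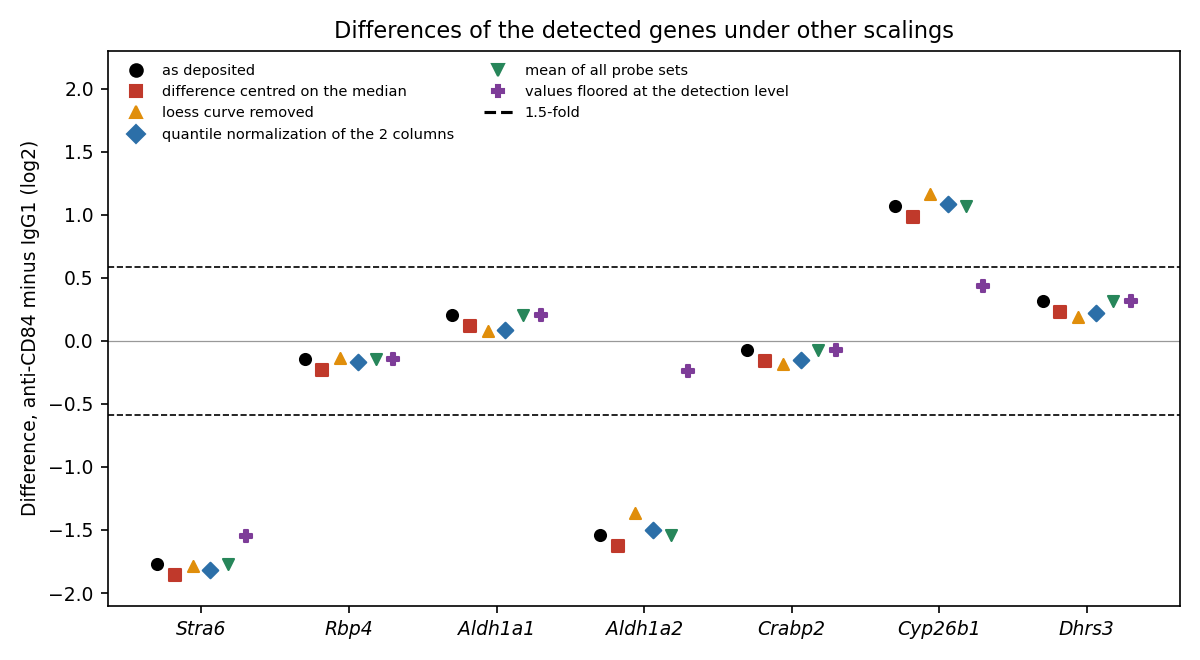
Differences (anti-CD84 minus IgG1, log2, vertical axis) of the 7 detected genes as deposited and under 5 other ways of scaling or flooring the values, with dashed lines at 1.5-fold. Stra6 stays below the lower line under each of them, while Aldh1a2 (-0.24) and Cyp26b1 (0.44) come within 1.5-fold when values are floored at the detection level. The mean of probe sets could not move these genes, which have a single probe set each.

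The label of a stromal line was set against marker genes. Of 11 measured stromal markers 8 were detected, with Col1a1 (12.52 after anti-CD84 and 12.53 after IgG1), Vim (12.77 and 12.70) and Pdgfrb (11.92 and 11.45) high on both arrays. Past 1.5-fold were 2, both higher: Cxcl12 (10.29 after anti-CD84 and 9.19 after IgG1) and Pdgfra (10.21 and 9.29). Beside these and the marker counts below, 10.7% of all detected genes were past 1.5-fold higher and 6.4% lower. Eng, Nt5e and Lepr were below the detection level on both arrays. The pan-leukocyte gene Ptprc (3.90 and 3.86) was below it too, and 2 of 8 haematopoietic markers were detected, Cd68 (5.95 and 6.21) and Csf1r (4.86 and 4.14). By the deposited values Csf1r was past 1.5-fold higher, but it was undetected after IgG1. Counted from the detection level it was at least 1.01-fold higher. Of 5 endothelial markers 3 were detected, and Cdh5 (4.61 after anti-CD84 and 5.56 after IgG1) and Pecam1 (4.32 and 4.99) were past 1.5-fold lower, both undetected after anti-CD84. Counted from the detection level, Cdh5 was at least 1.65-fold and Pecam1 at least 1.11-fold lower. Of all genes above that level on the IgG1 array only, 48% were past 1.5-fold lower. Emcn, the endothelial marker detected on each array, was at 5.19 on both. The summed level of the 5 was 6.86 after anti-CD84 and 7.29 after IgG1 on the log2 scale, with Tek and Kdr below the detection level on both. Of 4 epithelial markers 3 were detected, and Cdh1 (4.73 after anti-CD84 and 5.68 after IgG1) was past 1.5-fold lower. It was undetected after anti-CD84 and at least 1.79-fold lower when counted from the detection level. A dimmer probe set of Cdh1 was below that level on both arrays (3.76 after anti-CD84 and 3.84 after IgG1) and differed by -0.08. Krt8 (5.27 and 5.42) and Krt18 (5.16 and 4.93), detected on each array, were within 1.5-fold. The summed epithelial level was 6.81 after anti-CD84 and 7.08 after IgG1, with Epcam below the detection level. Of 5 adipocyte markers 3 were detected, all 3 with the lower value after anti-CD84, and 0 were past 1.5-fold. Plin1 (4.61 after anti-CD84 and 5.11 after IgG1) and Fabp4 (4.56 and 5.13) were detected on the IgG1 array only. The summed adipocyte level was 8.25 after anti-CD84 and 8.48 after IgG1, with Adipoq below the detection level. Each of these summed levels adds values below the detection level, so it holds background and is no measure of cell content. The brightest gene in the adipocyte sum was Pparg (7.81 after anti-CD84 and 8.06 after IgG1). The part of these markers in the values of Stra6 and Aldh1a2 was not tested.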

How the data were processed

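Total RNA (200 ng) of 200000 cells per treatment was labelled with biotin, per the labels' protocols, and 1 anti-CD84 and 1 IgG1 sample were hybridised. The values are log2 expression, 1 per probe set and array, which the authors made with RMA and Partek, per the submitters' processing notes (no version or setting named). RMA in general compresses differences of dim probe sets. The log2 scale was read from the values (1.82 to 13.8, medians 4.87 and 4.88). Of 41345 probe sets, 23521 carry 1 symbol in GEO's platform annotation, 1814 several and 16010 none there, and 9 of 9 members matched RefSeq by gene ID. No coordinates of probe sets are given, since no label names the build of the array. Promoter sequences are RefSeq's, on GRCm38.p6, with 7 of 9 members found.

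The difference is anti-CD84 minus IgG1 (log2), counted at 1.5-fold, with no test. Members, gene lists and detection rule were chosen with earlier results of these data known. Named genes are the members and, per retinoid list, the detected genes past 1.5-fold, the 3 with the largest absolute difference and the brightest, with a few others of known role chosen after their values were seen. Of 96 retinoid genes listed, 10 had no single-symbol probe set and were not used. The alternatives were centring, loess (limma 3.58.1, span 0.4), quantile normalization, 3 other level filters, the mean of a gene's probe sets and flooring. Counting and motif steps were tested on simulated data. The tools were R 4.3.3 and Python 3.11.15 with pandas 2.3.3, numpy 2.4.6 and matplotlib 3.10.9.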

Additional observations from a re-analysis of the deposited data

How the results depend on the processing

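The 7 detected genes kept the sign of their difference under each of the 8 alternatives that gave a value, and 47 of 49 values moved by less than the standard deviation of differences at that level. The exceptions came from flooring values at the detection level, with -0.24 for Aldh1a2 and 0.44 for Cyp26b1. These counts were partly fixed in advance. The level filters only drop genes, the mean of probe sets equals the deposited value for a gene with 1 probe set, and flooring cannot reverse a sign. Centring, loess and quantile normalization could move a value or its sign, and flooring its size. Genes past 1.5-fold, 1 higher and 2 lower, became 0 and 1 with flooring, and 0 and 0 with the stricter detection level (6.88) or with both arrays above the level, filters that leave 3 and 4 of the genes. Among other retinoid pathway genes the 4 higher became 2 with centring or quantile normalization (Rdh10 and Rarb) and 2 with loess (Rarb and Bco1, with Rdh10 lost at 0.58). The 2 lower became 3 with centring, loess or quantile normalization, each time with Fabp5 added. With the stricter level, both arrays above the level or flooring, the 2 lower became 0. The 1 higher retinoic acid target became 0 under these last 3 settings, and the 0 lower became 1 (Rarres1, chosen after its value was seen) with no level filter. Over all detected genes the 1427 higher became 742 at the stricter level, and the 850 lower became 1575 with no filter, 219 at the stricter level, 457 with both arrays above the level and 548 with flooring. Of 218 values of 30 other named genes 3 moved by more than that spread, all with flooring, to 0.02 for Rarb, -0.28 for Rbp7 and -0.12 for Rdh16. Here too the level filters could not move a value. Values next to the detection level carry no order, and with 1 array per group no replicate could be left out. No paired analysis was possible because each group has 1 array.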

Other observations

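The genes that flank the members on their chromosomes in the RefSeq gene order were looked up after the values were seen. Those beside Stra6, Aldh1a2, Cyp26b1 and Dhrs3 are given. Islr, which encodes a leucine-rich repeat protein known as a marker of mesenchymal stromal cells, follows Stra6 and went the other way. It was at 7.52 after anti-CD84 and 6.10 after IgG1, 2.69-fold higher and above the detection level on both arrays. Ccdc33, on the other side of Stra6, was at 4.96 after anti-CD84 and 5.06 after IgG1. Beside Aldh1a2, Aqp9, a water and glycerol channel, was at least 1.24-fold higher, with 5.15 after anti-CD84 and an undetected 4.32 after IgG1, and Polr2m was at 10.11 and 10.12. The genes beside Cyp26b1, Dysf (6.44 after anti-CD84 and 6.27 after IgG1) and Exoc6b (8.70 and 8.64), were within 1.5-fold. Beside Dhrs3, whose difference was 0.31, Vps13d differed by 0.32 and Tnfrsf1b by 0.31, so a difference of that size was not particular to Dhrs3. For Ppard, a receptor that FABP5 is known to serve, a probe set that also carries the symbol 1810013A23Rik was at 5.70 after anti-CD84 and 4.25 after IgG1, while the single-symbol probe set was at 7.67 and 7.45.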
